A study of Rattus norvegicus with 6 samples.

Results

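Fatty acid carriers and lipid storage genes were followed on 6 Affymetrix Rat Genome arrays of 3Y1, an established rat fibroblast line of embryonic origin. The 9 genes are Fabp4, Fabp5, Cd36, Lpl, Plin2, Dgat1, Dgat2, Lpin1 and Pparg, of 14217 genes that the array annotation names. Their members on the array are the probe sets that the platform annotation assigns to a single one of these genes, 12 of 31042 probe sets other than controls. A further probe set names Cd36 together with another gene and was not used. Of the 12, 10 probe sets of 7 genes passed a filter on low signal (a mean of at least 61.6 over the 6 arrays) and were tested, among 18625 probe sets that passed. Cd36 and Lpl, with 1 probe set each, did not pass: their means were 40.3 and 35.7, and the lowest mean inside the filter was that of Fabp4, 197.1.

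The cells had been stably transfected with an empty vector (Vector) or with one that expresses MUC1-CD, the tail inside the cell of the mucin MUC1. The 3 groups of 2 biological replicates were Vector cells in vitro, MUC1-CD cells in vitro, and MUC1-CD cells in vivo, which are tumors grown under the skin of the hindlimbs of female athymic mice. No Vector tumors were among the samples, so MUC1-CD and Vector were compared in culture only, and tumors were compared with both cultures. Athymic mice lack mature T cells but keep macrophages, blood vessels, muscle and fat, so tumor RNA can hold RNA of mouse cells, which rat probes may or may not bind. Whether each line is 1 clone, which promoter drives the transgene and how many animals gave the tumors are not stated in the labels. All 14 fibroblast markers passed the filter, with Vim, encoding vimentin, at 20239.2 to 27322.3 on the 6 arrays. The levels of these markers were not uniform over the groups. Fbn1 had only 10.5 and 8.0 in Vector cells, 155.0 and 153.2 in MUC1-CD culture, and 986.2 and 1023.3 in tumors. It passed the filter through the MUC1-CD cells. By the test described below, 3 of the 14 were called higher and 8 lower in MUC1-CD than in Vector culture. Over all genes the shares were 21.2% and 24.9%.

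Free fatty acids enter cells through the scavenger receptor CD36 and are released from circulating triglyceride by lipoprotein lipase (Lpl). Inside the cell, small soluble fatty acid binding proteins such as Fabp4 and Fabp5 carry them. Triglyceride is built step by step: lipin (Lpin1) makes diacylglycerol, Dgat1 and Dgat2 add the last acyl chain, and Plin2 coats the resulting droplet. Pparg encodes PPARgamma, the nuclear receptor that directs fat cell formation and for which Fabp4, Cd36 and Lpl are textbook target genes. Fibroblasts make little of the fat cell members unless they enter adipogenesis, while macrophages, endothelium and muscle express several of them.

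Values are MAS5 signals, a linear intensity, given for replicates 1 and 2 in that order. A change is the difference between group means of log2(signal + 16), given with its standard error (SE) from limma. The added 16 makes changes of low signals look smaller, and an adjusted p below 0.05 is a call. The Vector arrays stood apart: the 3' to 5' signal ratio of Gapdh was 11.5 and 17.8 there and 1.11 to 1.18 on the other 4 arrays, and their log2 replicate difference had an SD of 0.616, against 0.257 and 0.284. Group and RNA quality cannot be told apart for Vector cells. The changes of the tested members against Vector are also given without either Vector array, to show their dependence on 1 array. Both Vector arrays had the high ratio, so these fits cannot separate RNA quality from group. Those fits keep 1 Vector array, which is assumed to vary like the MUC1-CD groups, so their p values hold nothing of the Vector spread. Tumor RNA was frozen, homogenized and passed over columns as well as TRIzol, so the effects of preparation and of growth in an animal cannot be told apart either. When every array was divided by its median signal, the overall median change, taken over every probe set tested, went from 0.07 to -0.24 for MUC1-CD against Vector in culture, from 0.05 to -0.21 for tumors against MUC1-CD culture and from 0.12 to -0.45 for tumors against Vector, and changes near these sizes depend on the scaling.

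**Figure D1:**
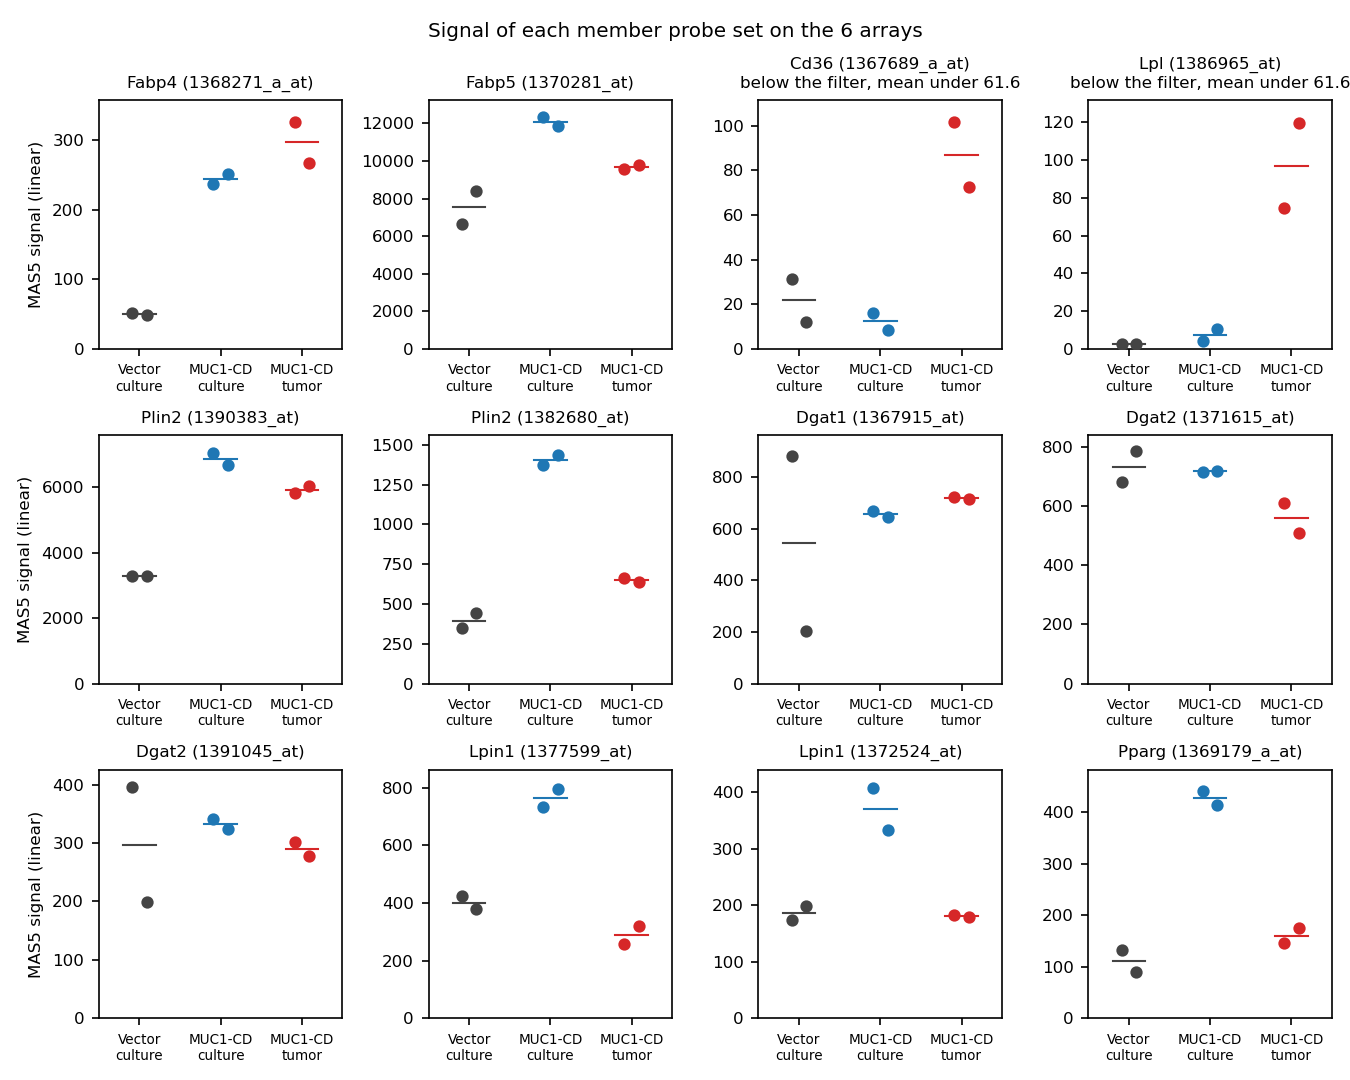
MAS5 signal (linear, from 0) of the 12 member probe sets on each array, with points for arrays and a line at each group mean. Fabp4 is low in Vector culture only, Cd36 and Lpl are highest in tumors, and Plin2, Lpin1 and Pparg peak in MUC1-CD culture.

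Compared with Vector cells, MUC1-CD cells in culture had higher signals for both fatty acid binding proteins, Plin2, Lpin1 and Pparg, and no tested member was called lower. Of the 10 member probe sets tested, 7 were called higher and 0 lower. Over all probe sets 25.0% were called higher and 20.7% lower. By gene, 5 of 7 tested genes had a higher call. The median change of the 10 was 0.92, against 0.07 over all probe sets. Fabp4 passed the filter through the MUC1-CD arrays, its Vector mean being below 61.6, and without it 6 of 9 were called higher and the median was 0.90.

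Fabp4 (1368271_a_at, chromosome 2), the fatty acid carrier of adipocytes and macrophages, was low in Vector cells. Its signals were 52.0 and 49.3 on the Vector arrays, 237.0 and 250.6 in MUC1-CD culture, and 326.4 and 267.3 in tumors. Every MUC1-CD array, in culture or in tumors, lay above both Vector arrays. The mean in MUC1-CD culture was 4.81 times that of Vector (50.6 ± 1.91 and 243.8 ± 9.62, SD, n = 2), a log2 change of 1.96 ± 0.19 (SE, limma adjusted p = 0.000426). Without Vector replicate 1 or 2 it was 1.99 or 1.93. With 1 or 64 in place of the added 16 it was 2.24 or 1.42, since the Vector signal was low. That Vector mean is not shown to be above background, so the sizes of the ratio and of the change are uncertain.

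Fabp5 (1370281_at, chromosome 2), the carrier first described in epidermis and widely expressed, had signals of 6639.8 and 8403.3 in Vector cells, 12315.0 and 11836.1 in MUC1-CD culture, and 9557.7 and 9783.7 in tumors. The groups did not overlap, with Vector lowest and MUC1-CD culture highest. It rose by 0.69 ± 0.12 (adjusted p = 0.00373), from a mean of 7521.5 ± 1247.0 to 12075.5 ± 338.6 (SD, n = 2). Without Vector replicate 1 or 2 the change was 0.52 or 0.86, and with division by the array median it was 0.37 (adjusted p = 0.0499).

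Plin2 (chromosome 5), the droplet coat protein found in most cells that store neutral lipid, rose on both of its probe sets. The brighter one (1390383_at) had a signal of 3301.1 on both Vector arrays, and 7053.7 and 6684.3 in MUC1-CD culture. It rose by 1.05 ± 0.09 (adjusted p = 0.000218), 2.08 times the Vector mean. Equal signals on both arrays of a pair were seen for 14 of the 18625 probe sets in the Vector group, 19 in MUC1-CD culture and 12 in tumors. The second probe set (1382680_at) had 349.4 and 441.4 in Vector cells against 1372.9 and 1433.8 in MUC1-CD culture, so the groups lay well apart. It rose by 1.80 ± 0.16 (adjusted p = 0.000279), 3.55 times the Vector mean. Both probe sets gave the same direction and call, and differed in size. Without Vector replicate 1 or 2 the changes were 1.05 and 1.05 for the first and 1.63 and 1.96 for the second.

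Lpin1 (chromosome 6), the phosphatidate phosphatase that supplies diacylglycerol, also rose on both of its probe sets. The first (1377599_at) had signals of 423.6 and 378.9 in Vector cells and 733.3 and 794.1 in MUC1-CD culture. It rose by 0.90 ± 0.17 (adjusted p = 0.00525). The second (1372524_at) had 174.2 and 198.4 against 406.8 and 332.9, and rose by 0.93 ± 0.18 (adjusted p = 0.00679). Neither pair of groups overlapped, and the sizes agree within their errors. The changes without Vector replicate 1 or 2 were 0.98 or 0.83 for the first and 0.84 or 1.01 for the second, and after division by the median they were 0.59 and 0.63. The call of the first was lost without MUC1-CD culture replicate 2 (0.85, adjusted p = 0.0601), and that of the second without MUC1-CD culture replicate 1 (0.79, adjusted p = 0.0736).

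Pparg (1369179_a_at, chromosome 4) was low in Vector cells and several times higher in MUC1-CD culture. Its signals were 131.6 and 90.2 on the Vector arrays and 441.5 and 412.7 on the MUC1-CD culture arrays. The mean rose 3.85 times, from 110.9 ± 29.3 to 427.1 ± 20.4 (SD, n = 2), a log2 change of 1.82 ± 0.22 (adjusted p = 0.000986). Without Vector replicate 1 or 2 it was 2.06 or 1.59.

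The 2 acyltransferases that complete triglyceride, Dgat1 and Dgat2, were not called. Dgat1 (1367915_at, chromosome 7) had signals of 882.5 and 202.2 on the Vector arrays, 667.0 and 644.4 in MUC1-CD culture, and 723.8 and 715.3 in tumors. The 4 MUC1-CD arrays lay close together between the 2 Vector arrays, which differed by 2.04 on the log2 scale. The change in culture was 0.60 ± 0.57 (adjusted p = 0.428), with a 95% interval of -0.77 to 1.97 wide enough to hold a doubling or a fall. Its direction was set by which Vector array was kept: 1.62 without replicate 1 (adjusted p = 1.4e-06) and -0.42 without replicate 2 (adjusted p = 0.00948). The 3' to 5' ratio of beta-actin was 4.15 on Vector replicate 1 and 41.7 on replicate 2, and its part in this spread was not tested. Both p values rest on the MUC1-CD spread alone, with 1 Vector array in the fit.

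Dgat2 (1371615_at, chromosome 1) had signals of 678.8 and 785.2 in Vector cells, 715.3 and 717.7 in MUC1-CD culture and 610.9 and 508.6 in tumors on its brighter probe set. The cultures overlapped, and the change was -0.03 ± 0.16 (adjusted p = 0.903, 95% interval -0.40 to 0.35), or -0.13 and 0.08 without Vector replicate 1 or 2. The second Dgat2 probe set (1391045_at) had 395.2 and 198.4 on the Vector arrays and 340.5 and 324.4 in MUC1-CD culture. Its change was 0.23 ± 0.30 (adjusted p = 0.562, 95% interval -0.48 to 0.94), and 0.70 (adjusted p = 0.00359) or -0.24 (adjusted p = 0.214) without Vector replicate 1 or 2.

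Cd36 and Lpl were near the bottom of the scale in both cultures. Cd36 (1367689_a_at, chromosome 4) had signals of 31.3 and 12.0 in Vector cells and 16.2 and 8.3 in MUC1-CD culture, so the groups overlapped. Lpl (1386965_at, chromosome 16) had signals of 2.7 and 2.7 in Vector cells and 4.0 and 10.4 in MUC1-CD culture. In a fit of all 31042 probe sets without the filter, their changes were -0.38 ± 0.38 (adjusted p = 0.536) and 0.30 ± 0.32 (adjusted p = 0.573). No MAS5 detection calls were used here, so these signals are not shown to be above background.

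**Figure D2:**
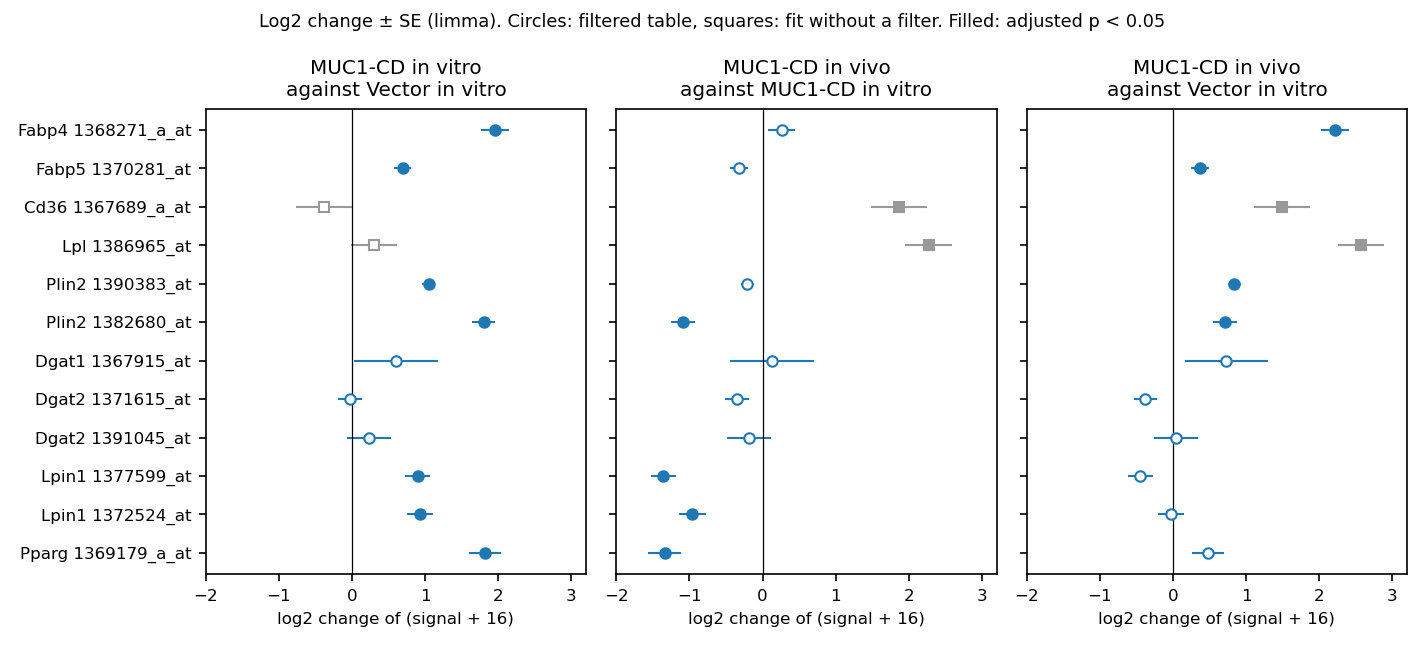
Log2 change of (signal + 16) with its SE (limma) in the 3 comparisons, one line per member probe set; filled symbols have an adjusted p below 0.05, and grey squares (Cd36, Lpl) come from the fit without a filter. In culture 7 of the 10 tested probe sets are filled to the right of 0, and in tumors against MUC1-CD culture 4 are filled to the left.

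The next comparison set tumors beside the cultured MUC1-CD line from which they were grown. Lpin1 and Pparg were lower in tumors, Plin2 was lower on one of its probe sets, and Fabp4 was not called. Of the 10 tested member probe sets, 0 were called higher and 4 lower, beside 8.54% and 7.31% of all probe sets. The median change of the 10 was -0.34, against 0.05 over all probe sets. Fewer members were called lower without any 1 MUC1-CD array, and more without either Vector array. The number called lower over all probe sets moved in the same way. With both Vector arrays left out, an alternative chosen after seeing the data, 7 member probe sets were called lower. Over all 18625 probe sets the lower calls rose there too, from 1362 to 3689. The Vector spread enters the shared error of this comparison.

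Pparg had signals of 145.1 and 174.5 in tumors, both below the 441.5 and 412.7 of MUC1-CD culture. It fell by 1.34 (SE 0.22, adjusted p = 0.0105), to 0.374 of the culture mean. Without a MUC1-CD array the change was -1.22 to -1.46 with adjusted p of 0.0694 to 0.116, so the size held and the call did not.

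Lpin1 had tumor signals of 259.3 and 320.4 on its first probe set, below both culture arrays. It fell by 1.36 (SE 0.17, adjusted p = 0.0035). The second probe set had 183.1 and 179.7 in tumors against 406.8 and 332.9 in culture, and fell by 0.96 (SE 0.18, adjusted p = 0.0167). Both probe sets again gave the same direction and call. Without MUC1-CD culture replicate 2 they were -1.30 (adjusted p = 0.058) and -1.10 (adjusted p = 0.0914), and without tumor replicate 1 they were -1.21 (adjusted p = 0.0517) and -0.97 (adjusted p = 0.127).

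The second Plin2 probe set had 663.8 and 638.0 in tumors, below both culture arrays, and fell by 1.09 (SE 0.16, adjusted p = 0.0061). Without any 1 MUC1-CD array its change was -1.06 to -1.12 at adjusted p of 0.0714 to 0.0841. The brighter probe set had 5818.1 and 6049.0 in tumors, also below both culture arrays, and a change of -0.21 ± 0.09 (adjusted p = 0.151). The droplet gene was thus lower on both probe sets in tumors, by unequal amounts, and 1 of the 2 was called. The brighter probe set had an adjusted p of 0.017 with the MUC1-CD arrays alone in the fit, and a change of -0.48 (adjusted p = 0.0185) after division by the median.

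Fabp5 had a change of -0.32 ± 0.12 between tumors and MUC1-CD culture (adjusted p = 0.118), with both tumor arrays below both culture arrays. It was called with division by the array median (-0.59, adjusted p = 0.0192) and with quantile normalization (-0.39, adjusted p = 0.0499). Fabp4, by contrast, had a change of 0.26 ± 0.19 (adjusted p = 0.408, 95% interval -0.20 to 0.73), with tumor signals of 326.4 and 267.3 above both culture arrays. The change of Fabp4 was 0.01 after division by the median. Whether the 2 carriers differed from each other in their change was not tested.

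Dgat1 had a change of 0.13 ± 0.57 (adjusted p = 0.907, 95% interval -1.24 to 1.50), and -0.13 after division by the median. The Dgat2 probe sets had changes of -0.35 ± 0.16 (adjusted p = 0.179) and -0.19 ± 0.30 (adjusted p = 0.718). On both Dgat2 probe sets the tumor arrays lay below the MUC1-CD culture arrays, and the first was called with division by the median (-0.62, adjusted p = 0.0318).

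The 2 members that act at the cell surface and in the vessel, Cd36 and Lpl, went the other way. Cd36 had signals of 101.4 and 72.6 in tumors against 16.2 and 8.3 in MUC1-CD culture, with no overlap. Lpl had 74.6 and 119.6 in tumors against 4.0 and 10.4. In the fit without a filter, Cd36 changed by 1.87 ± 0.38 (limma adjusted p = 0.0303) and Lpl by 2.27 ± 0.32 (adjusted p = 0.00926). That fit called 4.96% of its probe sets higher. These genes lay below the filter because they were low in 4 of 6 arrays, and they are not part of the counts above.

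Markers of cells that a mouse host supplies were higher on the same arrays. Over all 14217 genes on the array, whatever their signal, both tumor arrays lay above both MUC1-CD culture arrays for 41.2% and below them for 26.8%. Over 16 macrophage markers the summed signal was 404.3 to 546.0 in Vector cells, 619.6 to 638.1 in MUC1-CD culture and 4593.3 to 4637.7 in tumors, and both tumor arrays lay above both MUC1-CD culture arrays for 13 markers and below for 1. Coro1a had 15.0 and 1.6 in MUC1-CD culture and 911.6 and 1105.3 in tumors, and C1qa and Itgb2 were next in signal. Over 15 endothelial markers the sum was 1796.6 to 2075.4 in Vector cells, 785.1 to 861.1 in MUC1-CD culture and 3603.7 to 3620.1 in tumors. Ramp2 made up most of the Vector sum and was lower in tumors than in Vector cells. It had 1108.1 and 1446.0 in Vector cells, 114.1 and 135.5 in MUC1-CD culture, and 418.5 and 420.9 in tumors. The tumor arrays lay above MUC1-CD culture for 11 and below for 2, Vwf and Egfl7. Aqp1 reached 1763.4 and 1550.4, the largest part of the tumor sum, while Kdr was under 16 on all 6 arrays. Vwf had 24.3 and 21.1 in MUC1-CD culture and 9.7 and 10.2 in tumors. Over 16 skeletal muscle markers the sum was 3867.2 to 3986.2 in MUC1-CD culture and 13510.9 to 14478.6 in tumors, and the tumor arrays lay above for 15 and below for 1. Myh1 made up most of a sum of 11371.0 to 11731.7 in Vector cells. Acta1, the brightest in tumors, had 3.7 and 5.1 in MUC1-CD culture and 5854.5 and 4971.2 in tumors. Of the markers that passed the filter, 7 of 10 macrophage, 3 of 6 endothelial and 6 of 12 muscle markers had means below it in both cultures and passed through the tumors, so no share of calls is given. Their part in the signals of Cd36, Lpl and the other members was not tested.

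Adipocyte markers, the most direct sign of fat in the tumor sample, were mostly near the bottom of the scale. Of 11 on the array 2 passed the filter, the tumor arrays lay above both MUC1-CD culture arrays for 6 and below for 0, and their sum was 2082.4 to 2347.2 in Vector cells, 502.0 to 576.3 in MUC1-CD culture and 1140.0 to 1162.9 in tumors. Cfd, the serum protease adipsin, was the brightest of them and made up most of the Vector sum. It had 1998.0 and 1611.3 in Vector cells, 219.9 and 208.2 in MUC1-CD culture, and 522.0 and 580.3 in tumors. Adipoq, encoding adiponectin, had signals of 24.6 and 11.7 in tumors, the droplet coat Plin1 had 19.4 to 40.9 over the 6 arrays, and Cidec was under 16 on all arrays. Cidea, of brown fat droplets, had 101.3 and 103.6 in tumors against at most 25.9 in culture. Lipe, which passed the filter as Cfd did, had 170.8 and 178.6 in Vector cells, 164.0 and 188.0 in MUC1-CD culture, and 281.3 and 198.9 in tumors. Pck1 had 14.6 and 0.9 in MUC1-CD culture and 56.8 and 51.3 in tumors. The 6 markers with tumor arrays above both MUC1-CD culture arrays were Cfd, Lipe, Cidea, Pck1, Lep and Cidec. Over 13 keratinocyte markers the sum was 462.4 to 493.7 in MUC1-CD culture and 1051.0 to 1065.2 in tumors, with Cdh1 at 537.2 and 424.7, and the tumor arrays lay above for 8 and below for 1. Fewer cells of a type and less RNA per cell cannot be told apart in these bulk samples.

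**Figure D3:**
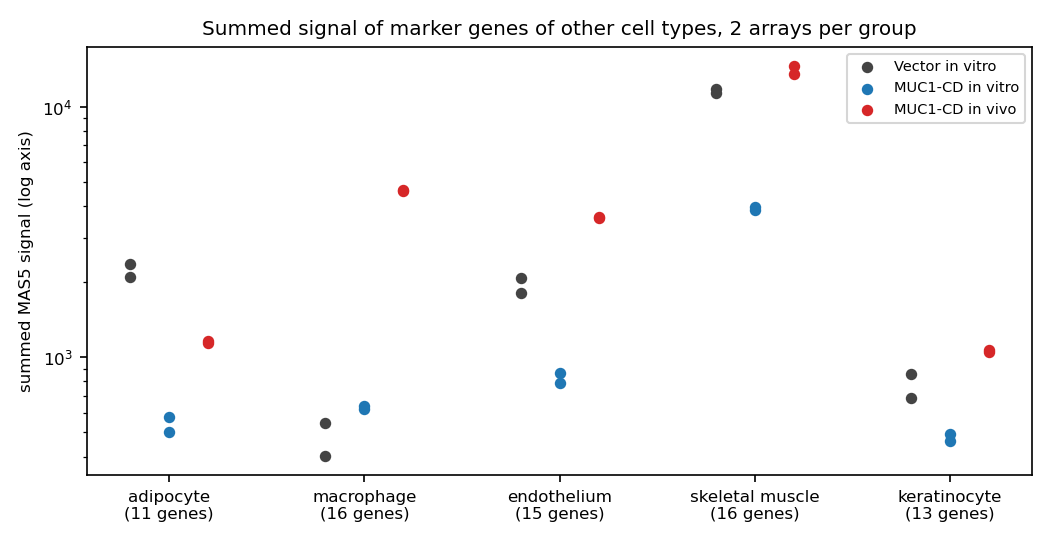
Summed MAS5 signal (log axis) of markers of 5 other cell types on each array, 2 points per group. Macrophage and endothelial sums in tumors lie above those of both cultures. The adipocyte sum is highest in Vector culture, where Cfd alone makes up most of it.

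Tumors were also compared with Vector cells, a comparison that shares its tumor arrays with the one above and its Vector arrays with the first. Of the 10 tested member probe sets, 4 were called higher and 0 lower, beside 29.1% and 22.4% of all probe sets, a share near the background. The median change was 0.43, against 0.12 over all probe sets. Without Fabp4, which passed the filter through the MUC1-CD arrays, 3 of 9 were called higher and the median was 0.37. Fabp4 was 5.86 times as high in tumors, with a change of 2.22 ± 0.19 (adjusted p = 0.000206), 2.25 or 2.20 without Vector replicate 1 or 2, and 1.71 after division by the median. Its tumor and Vector arrays did not overlap, and its Vector mean of 50.6 is not shown to be above background. Plin2 rose by 0.84 ± 0.09 (adjusted p = 0.000378) and 0.71 ± 0.16 (adjusted p = 0.00927) on its 2 probe sets. After division by the median these were 0.25 (adjusted p = 0.0738) and 0.13 (adjusted p = 0.521), while quantile normalization kept both calls (0.96, adjusted p = 0.000161, and 0.60, adjusted p = 0.024). Without Vector replicate 1 or 2 the second probe set was at 0.54 or 0.87 and the first at 0.84 both times, and the call of the second was lost without tumor replicate 1 or 2 (adjusted p = 0.0717 and 0.0571). Fabp5 rose by 0.37 ± 0.12 (adjusted p = 0.0357), but its direction turned after division by the median (-0.22, adjusted p = 0.169). It was 0.20 or 0.54 without Vector replicate 1 or 2, and its call was lost without any 1 of the MUC1-CD arrays (adjusted p = 0.0763 to 0.153).

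Pparg stood between the cultures in tumors, with a change of 0.48 ± 0.22 against Vector (adjusted p = 0.11, 95% interval -0.05 to 1.02). The tumor arrays lay above both Vector arrays, the change was 0.72 without Vector replicate 1 (adjusted p = 0.00729) and 0.25 without replicate 2, and it was -0.05 after division by the median. Lpin1 was at or below its Vector level, at -0.45 ± 0.17 (adjusted p = 0.0594) and -0.03 ± 0.18 (adjusted p = 0.893) on its 2 probe sets. The first was called lower with division by the median (-1.02, adjusted p = 0.00226), quantile normalization (-0.68, adjusted p = 0.016) and without Vector replicate 2 (-0.53, adjusted p = 0.0133), and was -0.38 without Vector replicate 1. The second was called lower with division by the median (-0.58, adjusted p = 0.0337) and was -0.12 or 0.05 without Vector replicate 1 or 2. Dgat1 had a change of 0.73 ± 0.57 (adjusted p = 0.319), or 1.75 and -0.29 without Vector replicate 1 or 2. Dgat2 had -0.38 ± 0.16 (adjusted p = 0.0824) and 0.04 ± 0.30 (adjusted p = 0.917). Its first probe set was called lower without Vector replicate 1 (-0.48, adjusted p = 0.00944) and after division by the median (-0.96, adjusted p = 0.00168), and was -0.28 without Vector replicate 2. Its second was called higher without Vector replicate 1 (0.51, adjusted p = 0.018) and lower without replicate 2 (-0.43, adjusted p = 0.0346), so the array kept set its direction. In the fit without a filter, which called 19.0% of probe sets higher, Cd36 changed by 1.49 ± 0.38 (adjusted p = 0.0242) and Lpl by 2.57 ± 0.32 (adjusted p = 0.00147).

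**Figure D4:**
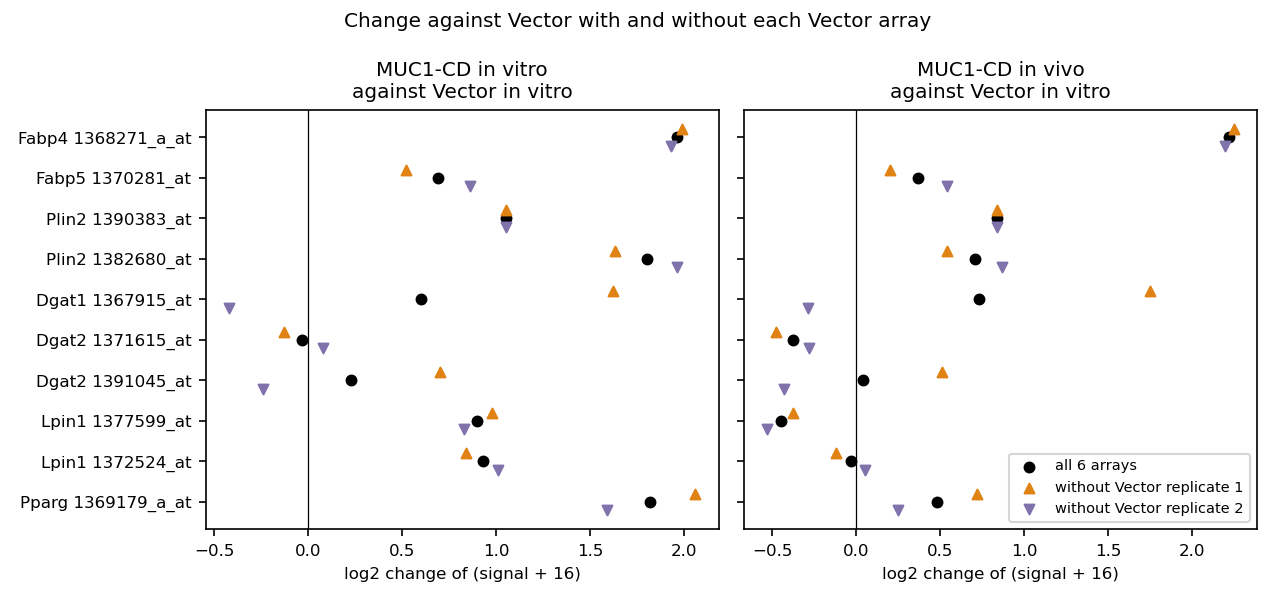
Log2 change of (signal + 16) against Vector culture for the 10 tested member probe sets, with all 6 arrays (black) and with either Vector array left out (orange, purple). Fabp4, Fabp5, Plin2, Lpin1 and Pparg stay to the right of 0 in the left panel, while Dgat1 and both Dgat2 probe sets change sides.

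Across the 3 groups, the tested members fell into few patterns. Fabp4 was low in Vector cells and high in both MUC1-CD groups. Plin2, Lpin1 and Pparg were highest in MUC1-CD culture. By group means, tumors lay between both cultures for Plin2 and Pparg, and at or below Vector for Lpin1. Tumors were not called apart from Vector for Pparg or Lpin1, nor from MUC1-CD culture on the brighter Plin2 probe set. Division by the median removed both Plin2 calls against Vector and put Pparg at -0.05 there. Fabp5 had the order Vector, tumors, MUC1-CD culture, with the tumor arrays not called apart from MUC1-CD culture. That order depended on the scaling: division by the median put the change of Fabp5 in tumors against Vector at -0.22. Dgat1 and Dgat2 had no neighbours in the order of their groups that were called apart. Cd36 and Lpl were highest in tumors, and their 2 cultures were not called apart.

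The sequences upstream of 3 members that were high in MUC1-CD culture are shown because these genes moved together there. Of the 9 genes, 4 (Cd36, Plin2, Lpin1 and Pparg) had an entry in the RefSeq promoter table of the GRCr8 assembly, with 6 windows of 250 bases before and 50 after a start. The 250 bases before the start are printed 5' to 3' on the gene's strand, with motif matches in capitals.
Plin2, first window, chr5:106229019-106229268, minus strand: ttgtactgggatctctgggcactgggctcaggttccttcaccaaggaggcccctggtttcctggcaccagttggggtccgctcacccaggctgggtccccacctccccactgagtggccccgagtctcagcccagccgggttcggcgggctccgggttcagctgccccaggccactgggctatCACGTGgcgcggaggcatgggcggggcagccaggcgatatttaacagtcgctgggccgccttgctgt
Lpin1, chr6:45108943-45109192, minus strand: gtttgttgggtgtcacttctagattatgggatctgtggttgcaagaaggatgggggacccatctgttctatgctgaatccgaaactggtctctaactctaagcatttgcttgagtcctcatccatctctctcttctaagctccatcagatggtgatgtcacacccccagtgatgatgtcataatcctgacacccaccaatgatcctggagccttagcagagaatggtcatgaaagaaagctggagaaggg
Pparg, first window, chr4:150096808-150097057, plus strand: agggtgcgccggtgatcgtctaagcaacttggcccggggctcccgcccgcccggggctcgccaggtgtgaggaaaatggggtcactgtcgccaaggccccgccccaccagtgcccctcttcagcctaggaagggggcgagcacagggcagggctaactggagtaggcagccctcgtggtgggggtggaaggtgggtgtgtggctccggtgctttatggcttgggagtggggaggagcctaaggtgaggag
Pparg, second window, chr4:150154522-150154771, plus strand: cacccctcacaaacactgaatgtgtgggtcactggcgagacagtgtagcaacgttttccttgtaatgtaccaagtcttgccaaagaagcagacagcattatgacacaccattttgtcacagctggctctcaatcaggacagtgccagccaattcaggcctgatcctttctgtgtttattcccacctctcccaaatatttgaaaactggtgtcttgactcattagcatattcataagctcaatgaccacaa

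Both strands of the windows were searched for 5 motifs. The nuclear receptor half-site AGGTCA occurred in 0 of the 6 member windows and in 16.2% of 33469 rat promoter windows. Its direct repeat with a spacing of 1 base (DR1), which contains the half-site and is bound by PPARgamma with its partner RXR, was in 0 member windows and 0.0538% of all. The sterol response element TCACNCCAC was in 0 member windows and 1.12% of all. The core ACGTG of hypoxia response elements was in 2 member windows, those of Cd36 and the first Plin2 window, and in 19.3% of all. In Plin2 it lies on both strands of 1 E-box, CACGTG, at positions -67 to -62 from the start, a motif found in 6.42% of all windows. A match is a description of letters only, and an absent match says nothing beyond these windows.

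Fabp4 and Fabp5 lie near each other on chromosome 2 in GRCr8, with 6 annotated genes between them, of which Fabp9 and Pmp2 code for proteins of the same family. The neighbours did not share the signals of Fabp4 and Fabp5. Fabp9 had signals of 1.9 to 14.5 and Pmp2, a carrier of myelin, of 3.0 to 25.9 over the 6 arrays. Fabp12, on the other side of Fabp4, had 6.0 to 28.0. Impa1, an inositol phosphatase beyond Fabp12, was not called in culture (0.19, adjusted p = 0.259) and fell in tumors against MUC1-CD culture by 1.02 (adjusted p = 0.0033). None of the 3 other carriers passed the filter.

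Genes whose leading probe set was nearest to that of a member over the 6 arrays were found by the root mean square distance between centred log2 profiles, among 10037 genes. For Fabp4 they were Htt, Mob3a and Rcor1, at distances of 0.10, 0.10 and 0.11. For Fabp5 they were Yme1l1, Dync1i2 and Srrm2, each at 0.05. For Plin2 they were Wdr54 (0.04), Slc30a4 (0.05) and Uty (0.05). For Lpin1 they were Magi1 (0.08), Pdlim2 (0.10) and Klhl40 (0.10). For Pparg they were Cd55, Car5b and Kif2c, each at 0.15, so no gene was as near to Pparg as to the other members named. For Dgat2 they were Tmem209 (0.03), Zcchc10 (0.03) and Qrsl1 (0.04). For Dgat1 they were Trabd (0.08), Mrtfa (0.09) and Thop1 (0.13), which share the split between the Vector arrays. With 3 groups of 2 arrays, nearness mostly reflects the group means.

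Related genes were followed in 7 lists of the same pathway, by each gene's brightest tested probe set and without the members. In MUC1-CD against Vector culture, 21.2% of all 10037 genes were called higher and 24.9% lower, with a median change of -0.04. Of 10 measured genes of fatty acid uptake and carriage, 2 were higher and 1 lower (median -0.08). Fabp3, the heart and muscle carrier, rose from 12.1 ± 2.76 to 188.9 ± 16.1 (SD, n = 2, adjusted p = 0.000519). Got2, a mitochondrial transaminase also described as a fatty acid binder at the membrane, rose by 1.27 ± 0.28 (1.75 or 0.79 without Vector replicate 1 or 2), and the transporter Slc27a1 fell by 1.31 (SE 0.22). Of 11 partners and relatives of lipoprotein lipase, 3 were higher and 3 lower (median -0.38): Sel1l, which helps the lipase leave the endoplasmic reticulum, rose by 1.03, the sorting receptor Sort1 rose by 0.96, Lmf2 fell by 1.67, and the protease Pcsk6 fell from 172.0 ± 5.66 to 7.6 ± 7.92.

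Glycerolipid synthesis had 11 of 23 measured genes higher and 4 lower, with a median of 0.46, or 0.13 after division by the array median. Mogat2, a monoacylglycerol acyltransferase, rose from 24.9 ± 13.1 to 334.6 ± 54.5 (SD, n = 2, adjusted p = 0.000288), and Cds1, which makes CDP-diacylglycerol, rose by 1.68 ± 0.20. Pcyt1a, of phosphatidylcholine synthesis, fell by 0.55 (SE 0.12). Plpp3, a lipid phosphate phosphatase, fell by 2.03 (SE 0.16) on its brightest probe set, but another probe set of it was called higher (1.01). Lipid droplet coat and assembly had 3 of 12 higher and 3 lower (median -0.12): Lpcat1 and Rab18 rose by 1.01 and 0.45, while Hilpda, an inhibitor of lipolysis, and Mettl7a fell by 1.39 and 2.60. Lipolysis and lipophagy had 4 of 10 higher and 1 lower (median 0.30, -0.01 after division by the median). Abhd5, the coactivator of the lipase ATGL, rose by 0.90 and the lysosomal lipase Lipa by 0.60, and Pnpla7 fell from 167.9 ± 39.9 to 53.2 ± 15.9.

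Among 20 measured PPAR and adipogenic regulators, 5 were higher and 5 lower (median 0.09). Srebf1, the regulator of fatty acid synthesis genes, rose by 1.34 ± 0.24 and Klf4 by 1.21 ± 0.15, while Ncoa1 fell by 0.94 (SE 0.16) and Klf15 fell from 325.8 ± 47.7 to 16.9 ± 17.2. Among 21 genes of fatty acid oxidation and other PPAR-responsive genes, 3 were higher and 7 lower (median -0.02). Pdk4, a kinase that shuts off pyruvate oxidation, rose by 0.95 and Acadl by 0.94, while Decr1 fell by 0.79 and the thioesterase Acot2 fell by 2.64. The adjusted p values of the genes named in these 7 lists for this comparison were 0.000138 to 0.0116. Their changes kept their direction without either Vector array and after division by the median, which moved Rab18 to 0.13, Lipa to 0.28, Abhd5 to 0.58, Acadl to 0.61 and Pcyt1a to -0.87. Fabp3, Mogat2, Pcsk6, Pnpla7 and Klf15 had a group mean below 61.6 that is not shown to be above background, so their means are given without a log2 change. They passed the filter through groups where they were higher, as Fabp4 did, so their calls are no separate support for a change. They are part of the counts of their lists, and counts without them are not given.

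In tumors against MUC1-CD culture, 9.82% of all genes were called higher and 8.97% lower, with a median change of 0.03. Of the carriers 1 of 10 was higher, Crabp2 (0.91), a retinoic acid carrier, and 1 lower, Dbi, the acyl-CoA binding protein, which fell by 0.92. Of the lipase partners 3 of 11 were higher and 1 lower: Apoc1 rose from 11.3 ± 0.424, which is not shown to be above background, to 702.3 ± 5.94 (SD, n = 2, adjusted p = 0.000164). Angptl4, a secreted inhibitor of lipoprotein lipase, rose by 1.11, and Vldlr, a lipoprotein receptor, fell by 2.11 (SE 0.14). Gpihbp1, the endothelial anchor of the lipase, had signals of 59.1 and 82.2 in tumors and did not pass the filter. Of glycerolipid synthesis 1 of 23 was higher, Plpp3 (1.50), and 3 were lower. Soat1, which makes cholesteryl esters, fell by 1.09, and Cds1 fell by 1.37. Macrophage markers moved on the same arrays, as given above, and their part in Apoc1 was not tested. Apoc1 passed the filter through the tumor arrays.

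Of lipid droplet genes 2 of 12 were higher in tumors than in MUC1-CD culture, Hilpda (1.15) and Fitm2 (0.94), and 2 were lower, Plin3, which fell by 0.79, and Spart, which fell by 0.92. Of lipolysis genes 0 of 10 were higher and 1 lower, the phospholipase Ddhd2, which fell by 0.54. Of PPAR and adipogenic regulators 3 of 20 were higher, with Ppargc1b (1.38) and Gata2 (0.93) first, and 1 lower, Srebf1, which fell by 1.20. Of fatty acid oxidation genes 0 of 21 were higher and 3 lower, with Pdk4, which fell by 1.07, and Hadhb, which fell by 0.55. The medians of the 7 lists lay between -0.25 and 0.38, and the adjusted p values of the genes named for this comparison were 0.000164 to 0.0338.

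**Figure D5:**
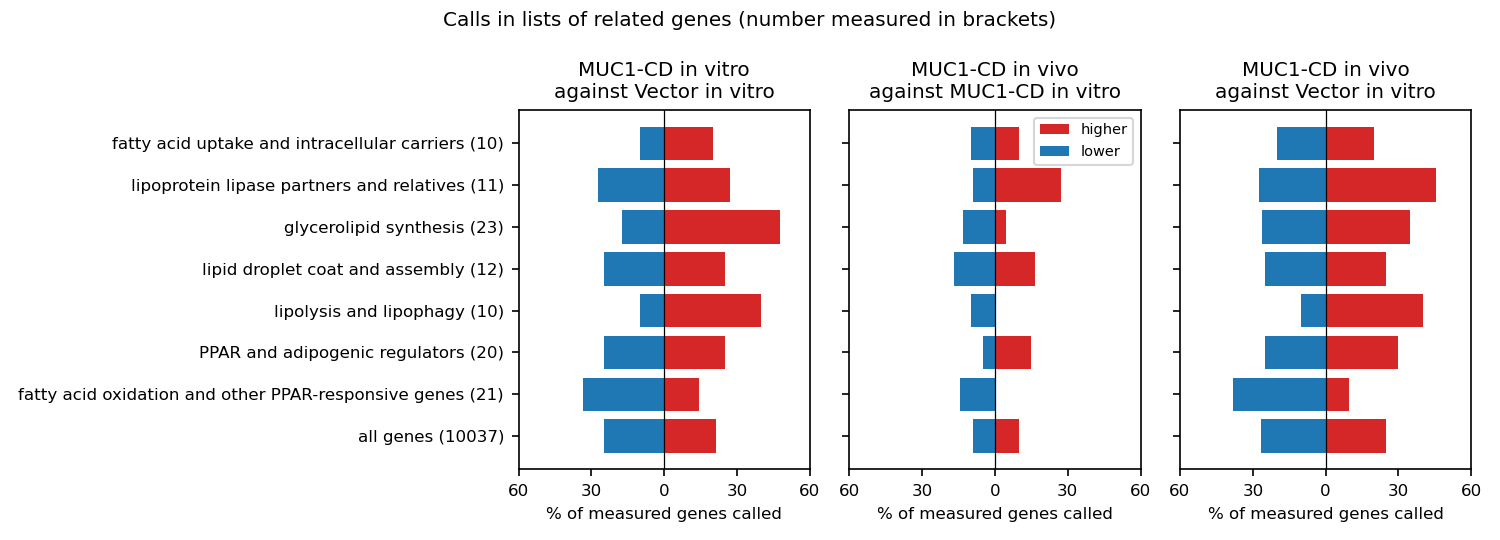
Share of measured genes called higher (red, right) and lower (blue, left) in 7 lists of related genes and among all genes, for the 3 comparisons. Glycerolipid synthesis has 11 of 23 genes called higher in MUC1-CD against Vector culture.

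In tumors against Vector cells, 24.8% of all genes were called higher and 26.6% lower. The lists had 2 higher and 2 lower of 10 carriers, 5 and 3 of 11 lipase partners, 8 and 6 of 23 genes of glycerolipid synthesis, and 3 and 3 of 12 droplet genes. Lipolysis had 4 and 1 of 10, regulators 6 and 5 of 20, and fatty acid oxidation 2 and 8 of 21. Fabp3 was again higher, at 183.6 ± 68 (SD, n = 2) in tumors (adjusted p = 0.000451), with Crabp2 (0.90), while Dbi fell by 0.81. Acbd3 fell by 0.41 on its brightest probe set, but 2 other probe sets of it were called higher (2.33 and 1.08). Sel1l (1.27), Ctdnep1 (1.55), Fitm2 (1.66), Abhd5 (0.78), Lipa (0.68), Klf4 (1.64), Ucp2 (1.22) and Acadl (0.64) were higher, and so were Apoc1, Mogat2 and Ppargc1b, whose Vector means were 50.2, 24.9 and 49.8. After division by the median these were smaller: Lipa was at 0.08, Acadl at 0.05, Abhd5 at 0.19, Crabp2 at 0.35, Ucp2 at 0.65, Sel1l at 0.69, Ctdnep1 at 0.98, Klf4 at 1.05 and Fitm2 at 1.10. Ucp2 was at 1.72 or 0.73 without Vector replicate 1 or 2. Vldlr (-2.50), Lmf2 (-1.67), Plpp1 (-0.78), Soat1 (-1.10), Mettl7a (-2.55), Spart (-1.71), Ddhd2 (-0.65), Cebpa (-0.99), Nrip1 (-1.10), Acot2 (-2.50) and Decr1 (-1.21) were lower, and were further below 0 after division by the median. Rab18 rose by 0.31 but its direction turned after division by the median (-0.28). The adjusted p values of the genes named in this paragraph were 4.49e-05 to 0.0396. Fabp3, Apoc1, Mogat2 and Ppargc1b had Vector means below the filter and passed it through the MUC1-CD arrays, in culture or in tumors.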

How the data were processed

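The deposited table holds linear signal intensities made with MAS5, per the submitters' processing notes. Its version and any filter are not stated in the labels. All 6 arrays had the same 2% trimmed mean (500.2), and this scaling was kept. A platform annotation named 1 gene for 20826 of 31042 probe sets, several for 436 and none for 9780; 20758 matched GRCr8 by Entrez identifier. The table held 57 control probe sets.

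Signals were transformed as log2(signal + 16), and probe sets were tested where their mean reached the 40th percentile of means (61.6). limma 3.58.1 (R 4.3.3) fitted 1 model with group as the only term to the 18625 kept probe sets (eBayes with a trend; 3 residual degrees of freedom, and 3.7 from the prior at its median). Tests are 2-sided, with Benjamini-Hochberg adjustment over all kept probe sets and a threshold of 0.05. P values measure the spread between 2 arrays a group, whose number limits the precision; a group reduced to 1 array borrows the spread of the rest. The code was tested on simulated data.

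Alternatives were pseudocounts of 1 and 64, no filter, a 60th percentile filter (225.0), division by the array median, quantile normalization, a replicate block, no trend, each array left out, and the MUC1-CD arrays alone (added after the data were seen). The genes followed, the lists and the rules were chosen with earlier results of these data known. Named genes are all members and the 3 nearest profiles of each tested member. Of each list they are the 2 called genes with the smallest p in each direction. Markers named are some of those with the highest tumor signals, and those under 16 throughout. A few other markers and neighbours of Fabp4 were chosen after their values were seen.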

Additional observations from a re-analysis of the deposited data

How the results depend on the processing

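Of 180 member results with 1 array left out, 138 kept their direction and their side of the threshold, 22 lost a call, 13 gained one with the direction kept, and 7 turned. Of 247 under the other alternatives 226 kept both, 4 lost a call, 11 gained one, and 6 turned. Among the results that turned, Fabp5 in tumors against Vector was called in the fit of all arrays, and it was at -0.22 with division by the array median. Without Vector replicate 2, Dgat1 was at -0.42 in culture and -0.29 in tumors against Vector, both past the threshold, and the second Dgat2 probe set at -0.24 and, past the threshold, -0.43. There the first Dgat2 probe set was at 0.08 in culture and the second Lpin1 probe set at 0.05 in tumors against Vector. With replicate 1 left out instead, Dgat1 was at 1.62 and 1.75, the second Dgat2 probe set at 0.70 and 0.51, the first at -0.13 in culture and the second Lpin1 probe set at -0.12. With division by the median, Dgat1 was at -0.13 in tumors against MUC1-CD culture, Pparg at -0.05 in tumors against Vector, and the second Dgat2 probe set at -0.08 in culture and -0.52 in tumors against Vector. That last value was -0.21 with quantile normalization and -0.01 without tumor replicate 1. Same-numbered arrays did not deviate together (correlations -0.018, -0.027 and -0.045). With the replicate block, 7 member probe sets were called higher in culture, 4 lower in tumors against MUC1-CD culture and 4 higher in tumors against Vector, the same counts as without it.

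For MUC1-CD against Vector culture, division by the median moved the probe sets called lower from 3857 to 6127. With 1 array left out, 2356 to 6385 were called higher and 2057 to 5134 lower, and 0 to 1 member probe sets lower. For tumors against MUC1-CD culture, 1590 probe sets were called higher, and 1055 with the 60th percentile filter, 962 with division by the median, 4360 with the MUC1-CD arrays alone and 365 to 4337 with 1 array left out. The 1362 called lower became 3232, 3689 and 214 to 3713 with division by the median, the MUC1-CD arrays alone and 1 array left out, and the 4 members called lower became 7, 7 and 0 to 7. Without the filter 2 members, Cd36 and Lpl, were called higher. For tumors against Vector, 5422 were called higher, and 3305 with the 60th percentile filter, 2922 with division by the median and 3353 to 7035 with 1 array left out. The 4167 called lower became 8428 with division by the median and 2605 to 5366 with 1 array left out. Members called higher went from 4 to 1 with division by the median and to between 2 and 7 with 1 array left out, and members called lower from 0 to 3, 1 with quantile normalization, and 0 to 3. The causes were not tested. Signal near background limits Cd36 and Lpl in culture.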
